A study of Homo sapiens with 6 samples.

Results

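The regions described here are transcribed loci to which the authors' table gives no gene name. A locus was a member when its name field was empty, when it was not on the Y chromosome and when its mean over the 6 libraries was at least 1 FPKM (fragments per kilobase of locus, scaled to library size). The rule found 1010 such loci among 8051 unnamed loci off the Y chromosome and 62828 loci in the whole table. Members were chosen by their mean FPKM over all 6 libraries, so the levels below are descriptions. Just inside the limit lay chr6:153185222-153185579 (hg19), with a mean of 1.001 FPKM, and just outside it lay chr6:158687752-158688991, with a mean of 0.998 FPKM.

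K562 is an established human line from chronic myelogenous leukemia, and all libraries came from it. Cells were transfected with siRNA to HNRNPU at 300 nM (knockdown) or with control oligos (control), so all groups share the cell line and a transfection. RNA was taken from whole cells, from nuclei and from the cytosol. Per the labels' protocols, libraries were strand-specific and ribosomal RNA was depleted from the fractions, with a different provider named for total RNA sequencing. Each of the 6 groups is 1 library, so no difference below has a replicate check and no p-value is given. The sources used here do not say whether the 3 preparations of a condition shared a culture. In what follows, paired values give control first and knockdown second.

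The locus that merges HNRNPU with HNRNPU-AS1 fell in each preparation, from 129 to 55.3 FPKM (whole-cell), from 163 to 63.7 (nuclear) and from 158 to 34.9 (cytosolic). MALAT1, a long noncoding RNA retained in nuclear speckles, had 1984 FPKM in control nuclear and 141 in control cytosolic RNA, whereas GAS5, a spliced snoRNA host RNA, had 240 and 853. All 13 erythroid marker names were at 1 FPKM or more (6.35 to 851, with HBG2 and HBE1 in 1 merged locus). So were 0 of 3 B cell, 1 of 3 monocyte (LYZ, 2.59), 1 of 3 fibroblast (COL1A2, 10.4) and 2 of 4 T cell markers (CD3D, 15.2, and CD3E, 1.68). Libraries differed in depth, so that 1 FPKM over 1 kb meant from 13.6 fragments (cytosolic, control) to 39.9 fragments (nuclear, knockdown). These are bulk samples, in which fewer cells with a transcript and less of it per cell cannot be told apart.

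Transcript assembly from RNA-seq reads places loci wherever reads pile up, including where no gene is annotated. Known classes of such RNA are enhancer RNAs, RNAs transcribed upstream of and divergently from promoters, read-through RNA downstream of genes and very long intergenic noncoding RNAs. Many of them stay in the nucleus, where the RNA exosome and its adaptor complexes degrade them. HNRNPU, also called scaffold attachment factor A, binds nascent RNA and chromatin. Which of these classes a given locus here belongs to was not tested.

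The starts of 3 genes are shown first because an unnamed locus lay within 500 bases on their 5′ side. They were chosen after values were seen: of the 61 such loci whose values came out as whole fragments (below), these 3 had the highest means among neighbours with a single start in the RefSeq table. The sequences are RefSeq promoters on GRCh38.p14, 250 bases before to 50 bases after the start, whereas the distances to the unnamed loci are on hg19. They are not the sequences of the unnamed loci. Capitals mark matches on either strand to 4 motifs: the TATA box written as TATAAA, the CCAAT box written as CCAAT, the GC box written as GGGCGG, and the ETS family motif written as CCGGAAG. Each window is printed from its upstream end to its downstream end, on the strand of the gene.
CNNM3, chr2:96816018-96816317, plus strand: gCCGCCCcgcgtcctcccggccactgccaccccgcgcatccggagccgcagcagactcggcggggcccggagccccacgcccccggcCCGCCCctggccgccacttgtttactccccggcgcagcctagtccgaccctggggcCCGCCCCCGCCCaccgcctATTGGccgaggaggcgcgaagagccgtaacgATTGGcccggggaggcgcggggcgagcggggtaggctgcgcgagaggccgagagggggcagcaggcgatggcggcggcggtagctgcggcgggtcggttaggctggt
DYNC1LI1, chr3:32570809-32571108, minus strand: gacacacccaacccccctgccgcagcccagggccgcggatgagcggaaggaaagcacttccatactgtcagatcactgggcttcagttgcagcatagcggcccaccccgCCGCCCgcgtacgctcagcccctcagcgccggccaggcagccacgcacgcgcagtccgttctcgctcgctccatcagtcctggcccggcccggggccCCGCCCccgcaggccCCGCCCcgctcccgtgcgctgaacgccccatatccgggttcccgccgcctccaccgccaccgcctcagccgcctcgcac
KCMF1, chr2:84970911-84971210, plus strand: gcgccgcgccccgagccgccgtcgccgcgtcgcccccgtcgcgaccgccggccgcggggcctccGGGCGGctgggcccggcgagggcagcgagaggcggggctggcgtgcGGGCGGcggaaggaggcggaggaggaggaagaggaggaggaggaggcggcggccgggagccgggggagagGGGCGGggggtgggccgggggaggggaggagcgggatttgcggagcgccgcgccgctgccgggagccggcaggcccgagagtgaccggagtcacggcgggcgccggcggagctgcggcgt

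All 3 windows held GGGCGG, as did 44.95% of 35114 RefSeq promoters of this length, and CNNM3 also held CCAAT, as did 34.6%. None of the 3 held TATAAA (11.5% of all promoters) or CCGGAAG (10.3%). Their G and C content was 77.7%, 73.3% and 83.0% in the order shown, against a median of 58.7% over all promoters, and they held 41, 34 and 51 CpG dinucleotides, against a median of 14. A match is a description of these letters only.

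The unnamed loci beside these starts did not share a compartment. The locus 9 bases from CNNM3 (chr2:97480971-97481972, hg19) had 1.99 and 1.84 FPKM in whole-cell, 1.65 and 1.05 in nuclear and 6.21 and 5.87 in cytosolic RNA. It was highest in the cytosol in both conditions, while CNNM3, a cyclin M family transporter gene, had 7.95 FPKM in control nuclear and 4.96 in control cytosolic RNA. The locus 61 bases from DYNC1LI1 (chr3:32612428-32613973), a gene for a light intermediate chain of cytoplasmic dynein, had 2.10 and 2.63 FPKM in whole-cell, 2.84 and 2.68 in nuclear and 3.64 and 3.79 in cytosolic RNA. All 6 values lay between 2.10 and 3.79 FPKM. The locus 248 bases from KCMF1 (chr2:85195974-85197967), a gene for a ubiquitin ligase, had 2.16 and 2.70 FPKM in whole-cell, 3.77 and 4.07 in nuclear and 0.876 and 0.753 in cytosolic RNA. It was lowest in the cytosol, where KCMF1 itself was highest, with 57.6 FPKM in control cytosolic against 11.01 in control nuclear RNA.

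The members were short and sat between genes. Lengths ran from 200 to 264716 bases, with a median of 1188.5 bases and quartiles of 632.5 and 2760.5 bases. Named loci at the same minimum level were longer: the median was 5054.5 bases over 1078 loci with clone-based names, 15428 over 73 LINC loci (long intergenic noncoding RNAs), 13038 over 149 antisense-named loci and 33315 over the other 10515. None of the 1010 members lay inside, held or partly overlapped a named locus, and neither did any of the 8051 unnamed loci, whereas 54.4% of all named loci overlapped another named locus. An empty name field therefore marks intergenic position in this table, and unnamed transcription inside genes is not among the members. Next to a named locus, within 5 kb, lay 285 members (28.2%), 429 (42.5%) lay 5 to 50 kb away and 296 (29.3%) farther. The median distance was 18328 bases, 105 members lay within 500 bases, and 160 overlapped another member.

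Chromosomes held unequal shares. Chromosome 6 and chromosome 2 each had 109 members (10.8% each, against 5.31% and 6.61% of named loci). Chromosome 12 had 97 (9.60% against 5.36%), chromosome 16 had 91 (9.01% against 4.89%) and chromosome 4 had 83 (8.22% against 3.25%). Single runs of nearby loci (domains, below) weigh on these shares. One run held 68 of the 83 members on chromosome 4, and another held 65 of the 97 on chromosome 12. Runs of 26 and 24 members lay on chromosome 16. Chromosome 19, which is dense in genes, had 6 members (0.594%) and 7.02% of the named loci, and chromosome 1 had 58 (5.74% against 10.6%). The single mitochondrial member, chrM:1-400, lies in the control region before MT-TF, a transfer RNA gene, and had the highest mean of all.

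Levels were low and were found in whole cells and nuclei far more than in the cytosol. The median of the mean level was 1.61 FPKM, against 10.1 FPKM over 11815 named loci, and 642 members lay between 1 and 2 FPKM, 48 at 5 or more and 17 at 10 or more. Median FPKM was 2.29 and 2.19 for whole-cell, 2.19 and 2.10 for nuclear and 0.223 and 0.188 for cytosolic libraries. At 0 were listed 11 and 18 members in the whole-cell libraries, 16 and 8 in the nuclear and 204 and 222 in the cytosolic ones, 133 of them in both cytosolic libraries. Both whole-cell and both nuclear libraries had 1 FPKM or more for 836 members, all 6 libraries for 123, and exactly 1 library for 5. The members took 0.545% and 0.522% of all FPKM outside mitochondrial DNA in whole-cell, 0.392% and 0.411% in nuclear and 0.161% and 0.113% in cytosolic RNA.

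Most members were counted over their full length. Low FPKM values rise in steps, and each step is worth 1 fragment divided by the length used. When the full locus length less 233 to 241 bases was used, 98.0% to 99.3% of values under 20 fragments came out whole within 0.1 in each library. Of the 849 members that could be judged, 781 (92.0%) came out whole, so their FPKM was computed over the full locus length with no intron taken out of it. Where in a locus the fragments lay was not measured. Among members over 5000 bases it was 80 of 103. A further 122 members were too short and 39 too deep to judge. Over the 781, the median was 57 and 46 fragments in whole-cell and 45 and 88 in nuclear RNA, but 4 and 4 in cytosolic RNA. Ratios that use a cytosolic value of a single member therefore rest on few fragments.

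The nuclear over cytosolic ratio set the unnamed loci apart from every named class measured. It is given as a difference of log2(FPKM + 0.1), which understates the ratio of low loci. The median was 2.94 in control (7.65-fold, 95% interval over loci 2.82 to 3.03) and 3.01 in knockdown (2.89 to 3.18). Medians of named classes were -0.13 and -0.21 for clone-named, -0.06 and -0.30 for LINC, -0.21 and -0.23 for antisense-named and -0.58 and -0.58 for other named loci, in control and knockdown. At least 2-fold higher in nuclear than cytosolic control RNA were 810 members (80.2%), where the share over all 12825 loci of at least 1 FPKM was 16%. At least 2-fold higher in the cytosol were 53 members (5.25%), against 29.1% of all loci. In knockdown the numbers were 810 and 47, against 14.4% and 28.4% of all loci. In both conditions 773 members were nuclear and 31 cytosolic by this measure. Fractions of whole libraries are compared here, so the ratio does not count molecules per cell. When the libraries were scaled to equal totals without mitochondrial, unplaced and small RNA loci, the median over named loci moved from -0.54 to 0.51 and that over the members from 2.94 to 3.69.

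**Figure D1:**
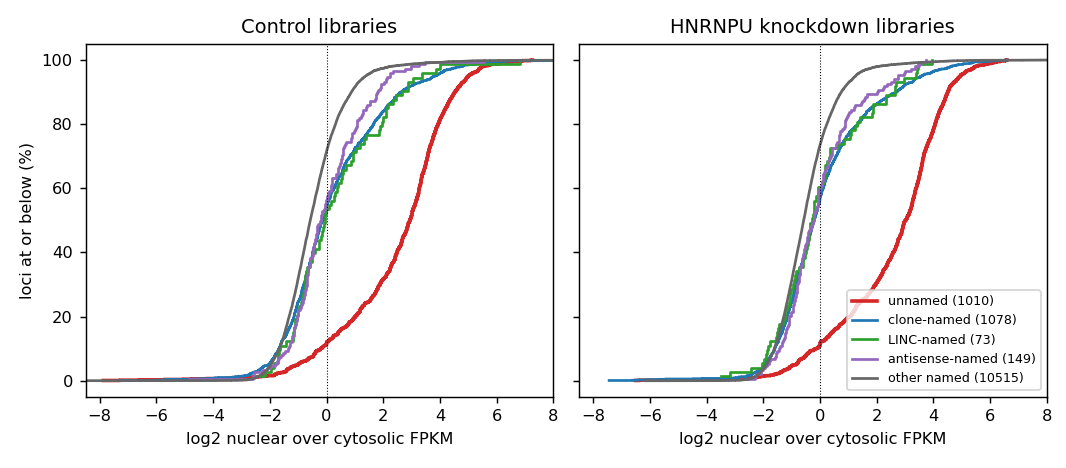
Share of loci (vertical axis, percent) at or below each log2 ratio of nuclear to cytosolic FPKM (horizontal axis), for unnamed loci and 4 classes of named loci, in control and knockdown libraries. The unnamed curve lies to the right of all 4 named curves in both panels, with medians of 2.94 and 3.01.

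The ratio differed by level. The levels are cut on a mean that holds the same nuclear and cytosolic values, and the part of this was not tested. Among members with a mean of 1 to under 2 FPKM, 536 of 642 (83.5%) were at least 2-fold nuclear, against 418 of 1292 named loci (32.4%) in the same range. From 2 to under 5 FPKM it was 255 of 320 members (79.7%) against 319 of 2078 named loci (15.4%). At 5 FPKM or more it was 19 of 48 members (39.6%), with 13 (27.1%) at least 2-fold cytosolic and a median of 0.06, against 5.93% nuclear, 36.7% cytosolic and a median of -0.71 over 8445 named loci. The 43 of these 48 outside the chromosome 6 region described below had a median of 0.65, with 44.2% nuclear and 20.9% cytosolic. Among loci of up to 5000 bases the median was 2.97 for 871 members and -0.41 for 1591 named loci. These members were still shorter (median 996 against 2194 bases) and lower in control nuclear RNA (median 2.14 against 4.51 FPKM). The part of length was not tested. Because 4 of the 6 values in the mean come from whole-cell and nuclear libraries, the rule itself favours RNA that is high there. Without any minimum, the median over all 8051 unnamed loci was 1.35. Over the 297 members with at least 5 fragments in each of the 4 fraction libraries, which leaves out those lowest in the cytosol, it was 1.92.

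The ratio also rose with distance from genes. Its control median was 1.73 for the 285 members next to a named locus (95% interval over loci 1.24 to 2.09), 2.97 for the 429 at 5 to 50 kb (2.84 to 3.13) and 3.45 for the 296 farther away (3.31 to 3.55). In knockdown the order was the same, with 1.72, 3.12 and 3.59. At least 2-fold nuclear in control were 179, 354 and 277 of them. In the far group 6 of 296 members were at least 2-fold cytosolic.

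Unnamed loci came in runs. Members within 50 kb of each other were joined into domains, a definition made after the data were seen. The 1010 members formed 370 domains: 241 members stood alone, 406 fell in 115 domains of 2 to 9, and 363 (35.9%) fell in 14 domains of 10 or more. With a gap of 10 kb instead, 226 members fell in 11 domains of 10 or more. The 14 domains spanned 63.9 to 527 kb each and 2708 kb together, 6 held no named locus and 10 held none at 1 FPKM or more. In control, the median log2 nuclear over cytosolic ratio was 3.54 for members in the 14 domains, with 348 of 363 at least 2-fold nuclear, 2.82 for members in domains of 2 to 9 and 1.26 for those alone, with 132 of 241.

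The largest domain covered chr4:127346535-127873051 with 68 members, of which 51 gave whole fragments. The only named locus inside was the pseudogene RBM48P1, below 1 FPKM, and the nearest named loci outside were 318 and 76.2 kb away. Its highest long member, chr4:127566461-127657605 (91145 bases), had 20.1 and 20.9 FPKM in whole-cell, 24.5 and 24.4 in nuclear and 1.20 and 1.11 in cytosolic RNA. Its whole-cell and nuclear values lay above the medians of named loci in the same libraries (7.90 to 8.94 FPKM), and its cytosolic values lay below theirs (12.2 and 12.5). Another long member, chr4:127439648-127471196, had 6.06 and 6.18 FPKM in nuclear and 0.284 and 0.243 in cytosolic RNA. The first member of the domain, chr4:127346535-127415782, was less nuclear than these, with 8.72 and 7.98 FPKM in nuclear and 5.51 and 2.97 in cytosolic RNA. Summed over the 51 members, nuclear RNA exceeded cytosolic RNA 20.1-fold in control (95% counting interval 18.3 to 22.2) and 23.4-fold in knockdown (21.3 to 25.8). This sum leaves out the first member and the member of 91145 bases, both too deep to judge. Counting intervals here cover fragment counting only, not culture or library differences. The 5 members with the highest mean nuclear over cytosolic ratio, by a rule that needs a mean of 2 FPKM and a value above 0 in each fraction, included 4 from this domain. The fifth, chr21:9832548-9833558, lies 6284 bases from MIR3687 and had 20.5 and 21.0 FPKM in nuclear against 0.945 and 0.427 in cytosolic RNA, from 10 and 5 cytosolic fragments.

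**Figure D2:**
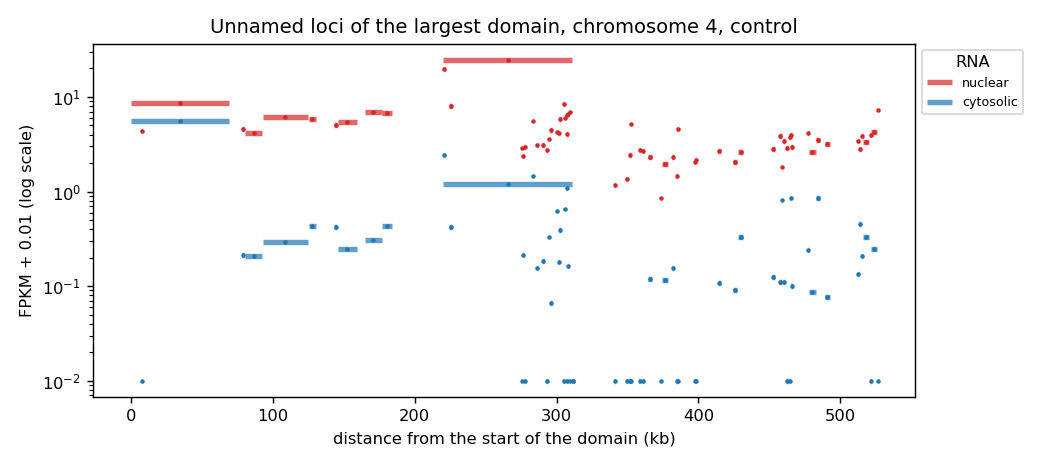
Position of the 68 unnamed loci of the largest domain (horizontal axis, kb from its start; bars span each locus and points mark its centre) and their control FPKM plus 0.01 (vertical axis, log scale) in nuclear and cytosolic RNA; points at 0.01 are listed at 0. Nuclear values lie above cytosolic values along the domain, and the longest locus stands at 24.5 FPKM in the nucleus and 1.20 in the cytosol.

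The second domain, chr12:91721506-92028161, had 65 members and held the longest of all members, chr12:91763446-92028161 (264716 bases). That locus had 21.2 and 20.9 FPKM in whole-cell, 20.7 and 22.7 in nuclear and 2.78 and 3.31 in cytosolic RNA. Members covered 287 of the 307 kb of the domain (93.7%), and this locus alone spans 265 kb. A domain of 30 members, chr3:191143298-191272445, began 26.8 kb from CCDC50, a gene for a ubiquitin-binding signalling protein, and contained PYDC2, a gene for a pyrin-domain protein. Its first member, chr3:191143298-191146060, had 5.15 and 5.32 FPKM in whole-cell, 6.54 and 7.32 in nuclear and 0.436 and 0.315 in cytosolic RNA. Pooled over their whole-fragment members, all 14 domains were higher in the nucleus. The folds ran from 4.76 to 20.6 in control and from 5.21 to 23.4 in knockdown. They leave out loci too deep to judge, such as the longest one, and folds of whole domains were not computed. A left-out member of a chromosome 16 domain, chr16:7820651-7908020, had 2.18 and 1.92 FPKM in nuclear and 2.19 and 4.90 in cytosolic RNA.

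After knockdown the level of unnamed RNA changed little as a group. The median log2 ratio of knockdown to control was -0.01 in whole-cell RNA (95% interval over loci -0.04 to 0.03), -0.01 in nuclear RNA (-0.04 to 0.01) and -0.01 in cytosolic RNA (-0.06 to 0.00). Over all 12825 loci the medians were 0.06, 0.03 and 0.03. At least 2-fold higher in whole-cell RNA were 34 members (3.37%), against 1.36% of all loci, and 45 were at least 2-fold lower (4.46%), against 1.29%. In nuclear RNA 43 were higher (4.26%), against 1.04%, and 37 lower (3.66%), against 1.5%. In cytosolic RNA 112 were higher (11.1%), against 2.62%, and 128 lower (12.7%), against 2.63%. The shares lie above the background in both directions, and the spread of these ratios fell with length. Among the 57 members of up to 300 bases, 16 were at least 2-fold higher and 14 lower in nuclear RNA, but among the 139 members over 5000 bases it was 1 and 0, and 3 and 4 in cytosolic RNA.

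**Figure D3:**
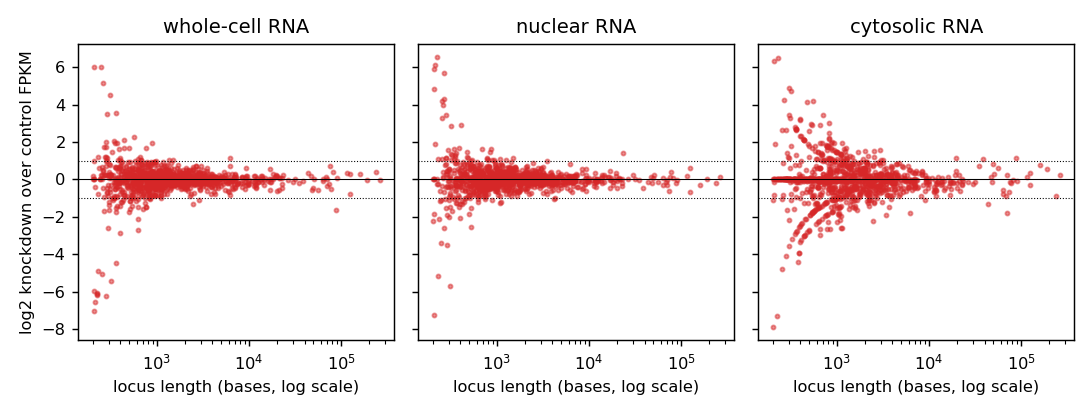
Log2 ratio of knockdown to control FPKM (vertical axis) against locus length in bases (horizontal axis, log scale) for the 1010 unnamed loci in whole-cell, nuclear and cytosolic RNA; dotted lines mark 2-fold. The ratios spread widely below 1000 bases and lie closer to 0 for most long loci, with a wider spread in cytosolic RNA.

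Counting error can be set beside these ratios for the members with whole fragments. The 95% counting interval of the knockdown ratio excluded an unchanged level for 133 of 781 members in whole-cell RNA (17.0%). Of these, 53 were higher and 80 lower. In nuclear RNA it did so for 142 of 781 (18.2%), 65 higher and 77 lower. In cytosolic RNA it did so for 64 of 707 (9.05%), 30 higher and 34 lower. Where counting is the only error and the true level is unchanged, at most 5% would be expected. These exact intervals are cautious, so at low counts such as the cytosolic ones the expected share is below 5%. Differences between cultures and libraries are not in these intervals and were not measured. Of the members at least 2-fold apart in cytosolic RNA, 16 of 80 higher and 15 of 101 lower ones had an interval that excluded an unchanged level.

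Pooled over the 283 of their 363 members with whole fragments, the large domains had these folds. Knockdown over control ran from 0.851-fold to 1.16-fold in whole-cell RNA (median 1.02), from 0.8996-fold to 1.15-fold in nuclear RNA (median 1.02) and from 0.703-fold to 1.04-fold in cytosolic RNA (median 0.887). The counting interval took in 1 for 10, 9 and 11 of the 14 domains in that order, and the cytosolic fold was below 1 in 13 of the 14. That count holds for the pooled members only, as the long members left out went both ways in cytosolic RNA. The longest, chr12:91763446-92028161, went from 2.78 to 3.31 FPKM, and chr4:127346535-127415782 went from 5.51 to 2.97. A domain of 29 members at chr2:78367844-78756458 was the one below 1 beyond counting error in all 3 preparations, at 0.851-fold (0.828 to 0.875), 0.915-fold (0.893 to 0.938) and 0.747-fold (0.660 to 0.846). The domain of 10 members at chr12:92087633-92224227 was higher in whole-cell RNA, at 1.16-fold (1.08 to 1.24), and in nuclear RNA, at 1.15-fold (1.07 to 1.24), but stood at 0.722-fold (0.517 to 1.004) in cytosolic RNA.

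These pooled folds leave out 9 members of 7 of the domains that were too deep for their fragments to be recovered. On the log2(FPKM + 0.1) scale their knockdown over control fold ran from 0.325 to 1.30 in whole-cell RNA (median 1.01), from 0.886 to 1.31 in nuclear RNA (median 1.04) and from 0.548 to 2.18 in cytosolic RNA (median 1.09), a wider range than the pooled folds. The widest differences in whole-cell and cytosolic RNA were in chr16:7820651-7908020 (XLOC_021666, 87370 bases), which had 7.39 and 2.33 FPKM in whole-cell, 2.18 and 1.92 in nuclear and 2.19 and 4.90 in cytosolic RNA. It was lower in whole-cell RNA and higher in cytosolic RNA after knockdown. The nuclear over cytosolic fold of the 9 ran from 0.996 to 19.0 in control (median 2.99) and from 0.405 to 20.2 in knockdown (median 3.50), so not all of them were nuclear.

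**Figure D4:**
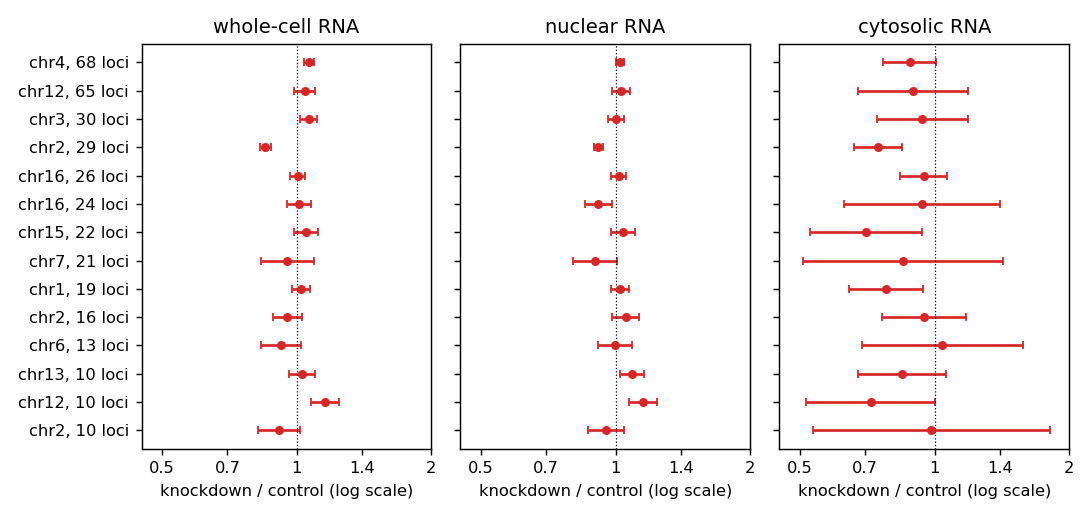
Knockdown over control fold (horizontal axis, log scale) of the 14 domains with at least 10 unnamed loci, in whole-cell, nuclear and cytosolic RNA; points are pooled over the whole-fragment loci of a domain and bars are 95% counting intervals. Whole-cell and nuclear folds lie between 0.851 and 1.16, and the cytosolic bars are wider because few fragments were counted there.

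The compartment of unnamed RNA had a small median difference between conditions. The localization shift is the log2 nuclear over cytosolic ratio in knockdown minus that in control, so values above 0 are toward the nucleus. Its median was 0.07 over the members (95% interval over loci 0.01 to 0.13) and 0.00 over all 12825 loci. With a pseudocount of 1 the median over the members was 0.0071, and over all unnamed loci without a minimum it was 0. The interval treats loci as independent, although many share a domain or overlap, so it is no test of a difference between conditions. In the large domains, the nuclear over cytosolic fold was pooled over whole-fragment members only. It was higher in knockdown than in control in 11 of 14. The 2 counting intervals were apart in 1, the domain at chr2:78367844-78756458 (10.7 to 12.7 in control and 13.03 to 15.7 in knockdown). Whether this differs from the spread between cultures was not tested. At least 2-fold toward the nucleus were 157 members (15.5%), against 3.27% of all loci, and at least 2-fold toward the cytosol were 129 (12.8%), against 3.83%. With at least 5 fragments in each fraction library, 12 and 5 of 297 members were shifted that far, 6 and 3 of them beyond their 95% counting range. In all, 21 of the 297 (7.07%) lay beyond it, and the median counting error of a shift was 0.54. The ratios of the 2 conditions correlated across these 297 loci with a Pearson r of 0.95, and across all 1010 with 0.74. This describes loci of the same 4 libraries, which share depth and are not replicates.

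**Figure D5:**
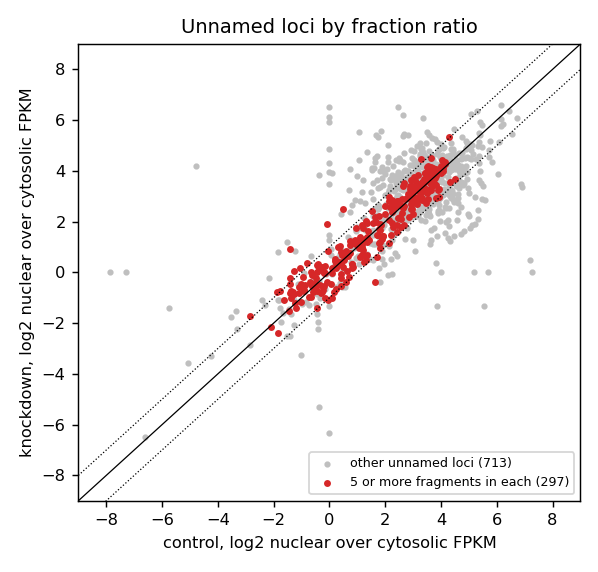
Log2 nuclear over cytosolic FPKM of each unnamed locus in control (horizontal axis) and knockdown (vertical axis); the solid line marks equality and dotted lines a 2-fold shift. The 297 loci with at least 5 fragments in each fraction library, in red, lie along the line (r of 0.95), and the 713 others scatter around it.

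Among the 712 members above 0 in all 4 fraction libraries, those with the largest shifts rested on few cytosolic fragments. The locus chr15:81449682-81450196, 1719 bases from the 5′ side of IL16, a cytokine gene, had 4.28 and 2.07 FPKM in whole-cell, 5.11 and 0.806 in nuclear and 0.261 and 0.237 in cytosolic RNA. Its shift of -2.43 came from the nuclear fall, from 28 to 9 fragments, with 1 cytosolic fragment in each condition. The locus chr6:26175508-26176316, 3930 bases from the 3′ side of the histone gene HIST1H2BD, had 0.970 and 1.66 FPKM in nuclear and 0.128 and 1.73 in cytosolic RNA, where 1 fragment stood against 15. In the other direction, chr15:96296245-96297086 had 2.00 and 1.90 FPKM in nuclear and 1.21 and 0.109 in cytosolic RNA, from 10 fragments and 1. Of the 10 members with the largest shifts, 5 each way, chr10:121331268-121331953, 2245 bases from the 3′ side of TIAL1, was the one with at least 5 recovered fragments in each fraction library, with 0.675 and 2.33 FPKM in nuclear and 1.95 and 1.18 in cytosolic RNA. Its shift was 2.33 with a counting error of 0.91.

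Few members moved at least 1.5-fold the same way in all 3 preparations. That far higher in all 3 were 6 of 1010 members (0.594%), against 0.343% of all loci. That far lower were 6 (0.594%), against 0.234%. Of any size, 129 of 1010 members were higher in all 3, a smaller share than the 24.6% of all loci. Lower were 165 of 1010, a larger share than the 13.2% of all loci. The 133 members at 0 in both cytosolic libraries cannot count either way. The locus chr10:32218037-32218920, 294 bases from the 5′ side of ARHGAP12, had 0.523 and 2.34 FPKM in whole-cell, 1.09 and 2.32 in nuclear and 0.677 and 2.25 in cytosolic RNA. Each knockdown value was above every control value, from 8, 14 and 6 fragments in control and 29, 60 and 22 in knockdown. The longer locus chr21:38934122-38936183, 43494 bases from KCNJ6, had 0.786 and 1.26 FPKM in whole-cell, 1.46 and 2.40 in nuclear and 1.005 and 2.03 in cytosolic RNA. It was higher in each preparation, although the knockdown whole-cell value lay below the control nuclear value.

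Lower in all 3 was chr11:88146029-88149524, 3637 bases from the pseudogene GAPDHP70, with 2.58 and 1.66 FPKM in whole-cell, 2.94 and 1.69 in nuclear and 1.22 and 0.650 in cytosolic RNA. Its fragments numbered 199, 191 and 54 in control and 104, 220 and 32 in knockdown, at unequal depth. The locus chr22:42226133-42226642, 576 bases from the clone-named RP5-821D11.7 and 2466 bases from SREBF2, a gene for a sterol-regulatory transcription factor, had 3.58 and 1.15 FPKM in whole-cell, 6.14 and 3.47 in nuclear and 2.65 and 1.69 in cytosolic RNA. It was lower in each preparation, from 10 and 7 fragments in the cytosol. A locus of the chromosome 2 domain described above, chr2:78512509-78513765, had 2.73 and 1.84 FPKM in whole-cell, 2.52 and 1.42 in nuclear and 0.431 and 0.194 in cytosolic RNA. It was lower in each preparation, on 6 and 3 cytosolic fragments.

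Beside expressed genes, unnamed RNA was more nuclear than the gene next to it. Of the 285 members next to a named locus, 201 had a neighbour at 1 FPKM or more. Their log2 nuclear over cytosolic ratio in control was above the neighbour's in 160 of 201 pairs, with a median difference of 1.59 (95% interval over pairs 1.21 to 1.77). The medians were 1.62 for the members and -0.35 for the neighbours. On the 5′ side of the neighbour lay 120 of the 201, at a median distance of 225 bases, and on its 3′ side lay 50, at 2842 bases. The ratio had a median of 1.62 on the 5′ side (1.13 to 2.09) and 1.12 on the 3′ side (0.41 to 2.23), intervals that overlap. Across the 201 pairs the ratio of member and neighbour correlated weakly (Pearson r of 0.27), and their knockdown ratios gave Pearson r of -0.08 (whole-cell), 0.11 (nuclear) and -0.07 (cytosolic). Pairs share the same libraries, and several members can share a neighbour. Members were also far lower in level than their neighbours. The median of the mean level was 1.48 FPKM against 14.7 on the 5′ side and 1.57 against 11.6 on the 3′ side. The ratio differed by level (above), and the part of level in this difference was not tested.

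Outside mitochondrial DNA, the highest member on a 5′ side of an expressed gene was chr4:160024595-160025149, 180 bases from RAPGEF2, a gene for a Rap guanine nucleotide exchange factor, with whole-cell values of 9.61 and 12.5 FPKM, nuclear values of 12.9 and 11.1 and cytosolic values of 7.30 and 8.90. All 6 values lay between 7.30 and 12.9 FPKM. The locus chr5:1345312-1348288, 97 bases from CLPTM1L, a membrane protein gene, had 3.25 and 5.36 FPKM in whole-cell, 5.63 and 8.36 in nuclear and 3.96 and 8.12 in cytosolic RNA, and was higher in knockdown in each preparation. Before NIPBL, a cohesin loader gene, chr5:36871930-36873210 had 5.95 and 7.94 FPKM in whole-cell, 6.89 and 6.92 in nuclear and 7.22 and 14.8 in cytosolic RNA. Its nuclear values were alike and its cytosolic values were not. The highest member on a 3′ side, chr20:3851550-3853521, 2269 bases from MAVS, an antiviral signalling gene, had 10.7 and 10.8 FPKM in whole-cell, 10.3 and 12.1 in nuclear and 20.03 and 20.1 in cytosolic RNA. It was highest in the cytosol, with little difference between conditions. The locus chr10:5500976-5522607, 549 bases beyond NET1, spans 21632 bases and had 10.2 and 10.3 FPKM in nuclear but 2.43 and 1.52 in cytosolic RNA.

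By the 2-fold measure 53 members (5.25%) were cytosolic on the deposited values, but this share was 2.77% with libraries scaled to the same median over named loci and 1.58% with equal totals. The median length of the 53 was 613 bases, 38 were of up to 1000 bases, 45 were above 0 in all 6 libraries and 3 fell in a domain of 10 or more. On chromosome 6, between chr6:26028615 and chr6:28785085, the region of the large replication-dependent histone gene cluster and of many transfer RNA genes, lay 33 members, of which 13 were cytosolic by this measure. The 13 members there of up to 400 bases had a median log2 ratio of -1.52, with 11 at least 2-fold cytosolic, whereas the 20 longer ones had 2.00. The 111 members of up to 400 bases outside this region had a median of 3.92, but 74 of them were listed at 0 in control cytosolic RNA. For those 74 the ratio rests on the 0.1 FPKM added to each value. The most abundant nuclear-encoded member, chr6:27198178-27198436 (259 bases), 17043 bases from PRSS16, a thymic protease gene, had 417 and 298 FPKM in whole-cell, 89.1 and 97.5 in nuclear and 1693 and 951 in cytosolic RNA. It was far higher in the cytosol in both conditions. The locus chr6:27758996-27759202, 16054 bases from HIST1H2BL, had 117 and 66.5 FPKM in cytosolic and 41.1 and 11.6 in nuclear RNA. The locus chr6:26305594-26305794, 19831 bases from HIST1H4H, had 44.8 and 20.6 FPKM in cytosolic and 17.0 and 3.56 in nuclear RNA. For loci of 200 to 300 bases, which are close to the 233 to 241 bases taken off the length, FPKM depends strongly on the length correction, and fragments could not be recovered. Its part in these values was not tested.

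Genes of nuclear RNA decay were followed as the machinery that acts on such RNA. Of a list of 42 gene names for exosome subunits, adaptors and Integrator subunits, 39 were found, all at 1 FPKM or more. CPSF3L is an older symbol of INTS11, which is also on the list. A name not found may stand under another symbol. For 6 of the 39 (EXOSC3, EXOSC7, RBM7, PABPN1, INTS5 and CPSF3L) the table holds only a locus merged with other genes. The value is then that of the merged locus, and 33 had a locus of their own. None was at least 2-fold higher after knockdown in any preparation. NRDE2, which acts with the exosome adaptor helicase, was 2-fold lower in whole-cell RNA (log2 ratio -1.49), with -0.81 in nuclear and 0.27 in cytosolic RNA, and no other gene of the list was 2-fold lower in any preparation. The medians over the 39 were 0.06, 0.05 and 0.10 in whole-cell, nuclear and cytosolic RNA, beside 0.06, 0.03 and 0.03 over all loci.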

How the data were processed

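The authors deposited FPKM values for 62828 loci in 6 libraries. No header names this unit, which was inferred from the steps of the values and from the tools. Per the submitters' processing notes, CASAVA, FastQC, TopHat2 2.0.13 and Cuffdiff 2.2.1 were used, and hg19 and mm9 are listed as builds without a role. The sources used here do not state the annotation, the library scaling or the strand setting of counting. Reads of an unnamed locus and of a gene on the other strand may therefore not have been kept apart. Coordinates are hg19; starts in the table count from 0 and are given here from 1. Strands of neighbours came from GENCODE 29 by symbol, with none of its coordinates used.

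Ratios are differences of log2(FPKM + 0.1). Promoter sequences are RefSeq on GRCh38.p14. Inside, next to (5 kb) and far (over 50 kb) were measured to the nearest named locus. The size rule was 2-fold, or 1.5-fold in all 3 preparations. Fragments were recovered from the steps of low FPKM values, with a tolerance of 0.1, for loci of at least 400 bases judged in at least 2 libraries under 200 fragments. Intervals of medians are 95% binomial rank intervals over loci, which treat loci as independent although many share a domain or overlap. Fold intervals are exact conditional Poisson. A planned comparison of unnamed loci inside a gene with that gene could not be made, as none lay inside, and the next-to comparison was added after the data were seen.

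Named loci were taken by rank: the 8 highest means; the 5 highest and 5 lowest by nuclear over cytosolic ratio (mean of at least 2 FPKM); the 5 largest shifts each way; the 5 each way with the same sign in all 3 preparations; the 4 longest; the 4 farthest from a named locus; and loci within 50 kb of HNRNPU, MALAT1, NEAT1 or globin genes. Not all are described. Further loci (highest and longest of domains, highest on each gene side, chromosome 6, promoters) were chosen after values were seen. The members and lists were chosen with earlier results of these data known. Scripts ran under Python 3.11.15 with scipy 1.17.1, numpy 2.4.6, pandas 2.3.3 and, for plots, matplotlib 3.10.9, and were tested on simulated data.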

Additional observations from a re-analysis of the deposited data

Results flagged for a closer look

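The flagged unnamed locus moved in opposite directions in the nucleus and the cytosol by at least 2-fold. The locus chr19:44355847-44356188 (342 bases), 2539 bases from the 3′ side of ZNF283, a zinc finger gene, had 0.490 FPKM in control and 1.17 in knockdown nuclear RNA, and 2.02 and 0.617 in cytosolic RNA, which gives a localization shift of 2.67. Its whole-cell values were 0.407 and 1.99 FPKM. It is not the only member that moved so, and the highest shift of any member was 8.96. It was flagged because its nuclear value rose and its cytosolic value fell under the same contrast. The difference was not tested, since each group is 1 library. At 342 bases the locus is under the minimum of 400 bases set for recovering fragments, so its fragments were not counted. With 233 to 241 bases taken off its length, 1 fragment makes a large step in its FPKM. The opposite changes and the shift of 2.67 may therefore rest on few fragments.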

How the results depend on the processing

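No paired analysis was possible because each group is 1 library with no replicate number, and no library could be left out. Of 133 alternative values of the summary results, 52 stayed within the main interval or within 1.5 times the main count and 81 did not, and none changed sign where the main interval excluded 0. No value could be given for unnamed loci inside a named locus, as there were none. Members stayed those chosen on the deposited values under both scalings. The few cytosolic fragments per locus limit every shift of a single locus. The causes of the changes were not tested, but settings with other loci change counts by construction. A count can then fall outside 1.5 times the main count while its share stays close. The share at least 2-fold nuclear in control, for example, was 82.8% over loci of at least 1000 bases against 80.2% over all members. Below, nuclear and cytosolic mean at least 2-fold higher there in control, higher and lower mean at least 2-fold after knockdown, and paired shares are higher then lower.

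With a pseudocount of 1 the median log2 nuclear over cytosolic ratio was 1.31 in control and 1.31 in knockdown, the median shift 0.0071 and the difference to the next named locus 0.93. Shares were 1.98% and 2.28% in whole-cell, 1.39% and 1.78% in nuclear and 1.58% and 1.39% in cytosolic RNA, 2.77% moved toward the cytosol and 3.27% toward the nucleus, and 0.099% each way moved 1.5-fold in all 3 preparations.

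Without a minimum (8051 loci) the medians were 1.35 and 1.31, the median shift 0 and the difference to the neighbour 1.77. Nuclear were 58.2% and cytosolic 2.51%; shares were 6.92% and 10.01% in whole-cell, 7.38% and 6.98% in nuclear and 6.20% and 8.50% in cytosolic RNA, 11.6% moved toward the cytosol and 13.7% toward the nucleus, and 0.745% and 1.04% moved in all 3.

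At a minimum mean of 5 FPKM (48 loci) the medians were 0.064 and 0.181, the knockdown medians 0.057, 0.022 and 0.0025 in whole-cell, nuclear and cytosolic RNA, the median shift 0.00999 and the difference to the neighbour 0.89. Nuclear were 39.6% and cytosolic 27.1%; shares were 2.08% and 4.17% in whole-cell, 4.17% and 4.17% in nuclear and 14.6% and 6.25% in cytosolic RNA, 12.5% moved toward the cytosol and 4.17% toward the nucleus, and 0 and 0 loci moved in all 3. Next to named loci lay 41.7%, far 16.7%, and the median length was 828 bases.

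Scaling to the same median over named loci gave medians of 3.26 and 3.35, 2.77% cytosolic loci and a whole-cell knockdown median of -0.069. Scaling to equal totals gave 3.69, 3.80, 1.58% and -0.073. These scalings moved the control median over named loci from -0.54 to -0.08 and 0.51. Over the 571 loci of at least 1000 bases, 82.8% were nuclear and 2.63% cytosolic, shares were 0.525% and 0.525% in whole-cell, 0.701% and 0.525% in nuclear and 4.90% and 7.36% in cytosolic RNA, 5.43% moved toward the cytosol and 9.81% toward the nucleus, 0.175% each way moved in all 3, and the cytosolic knockdown median was -0.080. With at least 5 fragments in each fraction library (297 loci), an alternative chosen after seeing the data, the control median was 1.92, and 1.68% moved toward the cytosol and 4.04% toward the nucleus.

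Next to a named locus were 13.1% within 1000 bases, 39.4% within 10000 bases and 21.8% when only named loci of at least 1 FPKM counted, with 47.6% then far. With a domain gap of 10 kb, also chosen after seeing the data, 226 members fell in domains of 10 or more. Of 675 alternative values of single named loci, 560 moved by under 0.5 log2 units, and 1 called value changed sign: the control ratio of chr14:106937071-106937464 (XLOC_018081), near LINC00221, was -1.004 and became 0.053 under equal totals.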

Other observations

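The next 3 of the 4 longest unnamed loci were all higher in nuclear than in cytosolic RNA in both conditions. The second longest, chr1:189118797-189359801 (241005 bases), had 2.62 and 2.25 FPKM in control and knockdown nuclear RNA and 1.29 and 0.668 in cytosolic RNA. The third, chr6:142160687-142351574 (190888 bases), 27892 bases from NMBR, a neuropeptide receptor gene, had 2.50 and 2.49 FPKM in nuclear and 0.335 and 0.533 in cytosolic RNA. The fourth, chr3:5738068-5896480, had 1.94 and 1.56 FPKM in nuclear and 0.452 and 0.830 in cytosolic RNA.

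The member farthest from a named locus, chr18:27736175-27755968, lay 537272 bases away and was cytosolic: it had 2.78 and 3.16 FPKM in nuclear and 7.39 and 10.0 in cytosolic RNA. The next, chrX:98131586-98155084, had 3.24 and 3.03 FPKM in cytosolic RNA, and in nuclear RNA it was listed at 0 in control and at 0.164 in knockdown. The third, chr3:5536414-5548411, was nuclear, with 2.04 and 1.84 against 0.0999 and 0.0282 FPKM.

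No member lay within 50 kb of HNRNPU or of a globin gene. A single member, chr11:65243768-65245029, lay within 50 kb of MALAT1 and NEAT1, at 20203 bases from MALAT1, and had 1.72 and 1.85 FPKM in nuclear and 0.286 and 0.710 in cytosolic RNA.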
